A study of Mus musculus with 4 samples.

Results

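The genes described here are 31 mouse genes that regulate, make, take up, move and export cholesterol. They were chosen by name, and their values come from the assembled loci that overlap their exons on the mouse build GRCm38. The series held 154206 loci. Their overlaps with exons of these genes numbered 205, a locus being counted once for each gene it touched, and 185 loci were used. The genes are 31 of 21654 protein-coding genes positioned. They comprise 4 genes of the SREBP2 switch, 18 synthesis enzymes, 4 genes of uptake and intracellular transport, and 5 genes of efflux and esterification.

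Liver RNA was sequenced in 4 libraries, 2 from wild type mice and 2 from mice with both copies of hemojuvelin disrupted (labelled HJV, gene symbol Hjv). All were C57/BL6 males moved at 5 weeks of age to an AIN-93G diet with 2.5 mg of iron per kg, kept on it for 50 days and harvested at 12 weeks, so the wild type controls were also on the iron-poor diet. Wild type mice were bought from a supplier and the knockout line came from another laboratory, so source and genotype cannot be told apart. The labels do not tie each library to an animal, so p-values measure the spread between libraries, which may be technical. Libraries held 51200000 to 132000000 fragments if a step between the deposited confidence bounds is 1 fragment. FPKM (fragments per kilobase of transcript, relative to library size) were scaled between libraries and are called scaled FPKM. They are per length, so levels of different genes can be compared.

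The targeted gene checked the labels. Hjv (Hfe2 in the annotation, chromosome 3, 96525172 to 96529210) stood at 9.20 and 29.6 scaled FPKM in wild type and at 0.237 in knockout replicate 2, and knockout replicate 1 had no used locus for it. Of 6 hepatocyte markers listed, Cps1, Cyp3a11, Tat and Ass1 had a value in every library. They summed to 3913 and 4422 scaled FPKM in wild type, and to 3006 and 2279.8 in knockout. Tat and Ass1 were lower in both knockout libraries, and Cps1 and Cyp3a11 overlapped between the genotypes. Cyp2e1, left out of the sum, stood at 3911 and 3822 in wild type and at 4269 in knockout replicate 1. It had no used locus in knockout replicate 2, and Serpina1c had none in any library. Kupffer cell markers (4 of 5 listed) summed to 90.0 and 109.7 in wild type against 63.4 and 85.5 in knockout, endothelial markers (5 of 5) to 35.1 and 49.7 against 44.3 and 60.7, and stellate cell markers (5 of 5) to 77.3 and 65.0 against 85.4 and 70.8. The cholangiocyte markers Krt19 and Krt7 had no used locus in 3 of 4 libraries, and Epcam and Spp1 summed to 33.3 and 23.1 in wild type against 26.1 and 13.6 in knockout. The part of these marker differences in the results below was not tested. In bulk tissue, fewer cells of a type and less RNA per cell cannot be told apart.

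Cholesterol is built in the endoplasmic reticulum from acetyl-CoA through mevalonate, farnesyl diphosphate, squalene and lanosterol. SREBP2, the product of Srebf2, is held in the endoplasmic reticulum by Scap and the Insig proteins while sterols are plentiful. When sterols fall it moves to the Golgi, is cut there, and its released part binds sterol regulatory elements, usually beside NF-Y sites, in promoters of the pathway. The liver also exports cholesterol to bile and to high density lipoprotein, and several late enzymes of synthesis use heme or non-heme iron.

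Promoter sequence is shown because the synthesis genes are textbook targets of 1 factor. RefSeq windows on GRCm38.p6 from 250 bases before to 50 bases after each start site were found for 24 of the 31 genes. Fdft1, Fdps, Npc1, Scarb1, Soat2, Sqle and Stard4 had no entry. The core of the sterol regulatory element, TCACNCCA on either strand, occurred in 3 of the 24 genes (12.5%), against 4.97% of 27025 genes with a window. The NF-Y box CCAAT, on either strand, occurred in 21 of 24 (87.5%) against 41.1% of all genes, and the E-box CACGTG in 6 of 24 (25%) against 8.09%. TCACNCCA and CCAAT can overlap by letters, and did not in these genes. A match is a description of the letters and not a bound site.

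The 3 sterol element matches were in Srebf2, Hmgcs1 and Msmo1, at 162, 137 and 177 bases before the start. They are printed 5′ to 3′ on the gene's strand with 25 bases on each side, the match in capitals, at chr15:82147082-82147139 (plus strand), chr13:119690189-119690246 (plus strand) and chr8:64733723-64733780 (minus strand).
Srebf2: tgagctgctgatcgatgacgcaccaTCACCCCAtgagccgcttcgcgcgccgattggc
Hmgcs1: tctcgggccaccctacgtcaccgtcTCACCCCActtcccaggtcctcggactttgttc
Msmo1: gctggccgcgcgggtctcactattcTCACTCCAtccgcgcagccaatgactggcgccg

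The 120 bases before the start are shown for enzymes whose levels separated the genotypes and that have 1 listed start, with NF-Y and E-box letters in capitals. Dhcr7 has 3 windows and is not printed: the first held none of these motifs, the second an E-box and the third NF-Y boxes. Cyp51, Nsdhl, Ebp and Sc5d were lower in both knockout libraries, and Mvk was higher in both. The stretches are chr5:4104698-4104817 (minus strand), chrX:72918401-72918520 (plus strand), chrX:8193513-8193632 (minus strand), chr9:42264301-42264420 (minus strand) and chr5:114444149-114444268 (plus strand).
Cyp51: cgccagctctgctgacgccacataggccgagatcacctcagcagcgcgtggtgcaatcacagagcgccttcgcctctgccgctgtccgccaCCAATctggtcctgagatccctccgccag
Nsdhl: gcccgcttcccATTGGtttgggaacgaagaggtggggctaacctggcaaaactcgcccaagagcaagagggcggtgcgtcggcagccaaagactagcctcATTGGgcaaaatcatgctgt
Ebp: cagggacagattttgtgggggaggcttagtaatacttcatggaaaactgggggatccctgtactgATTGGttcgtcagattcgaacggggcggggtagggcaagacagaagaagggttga
Sc5d: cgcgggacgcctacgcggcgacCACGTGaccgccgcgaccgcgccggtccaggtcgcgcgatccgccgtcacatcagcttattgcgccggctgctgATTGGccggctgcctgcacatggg
Mvk: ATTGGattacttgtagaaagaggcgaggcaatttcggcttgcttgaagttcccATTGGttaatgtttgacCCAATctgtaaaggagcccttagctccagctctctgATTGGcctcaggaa
All 5 stretches hold at least 1 NF-Y box, so the box was present both in genes that were lower and in the gene that was higher.

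**Figure D1:**
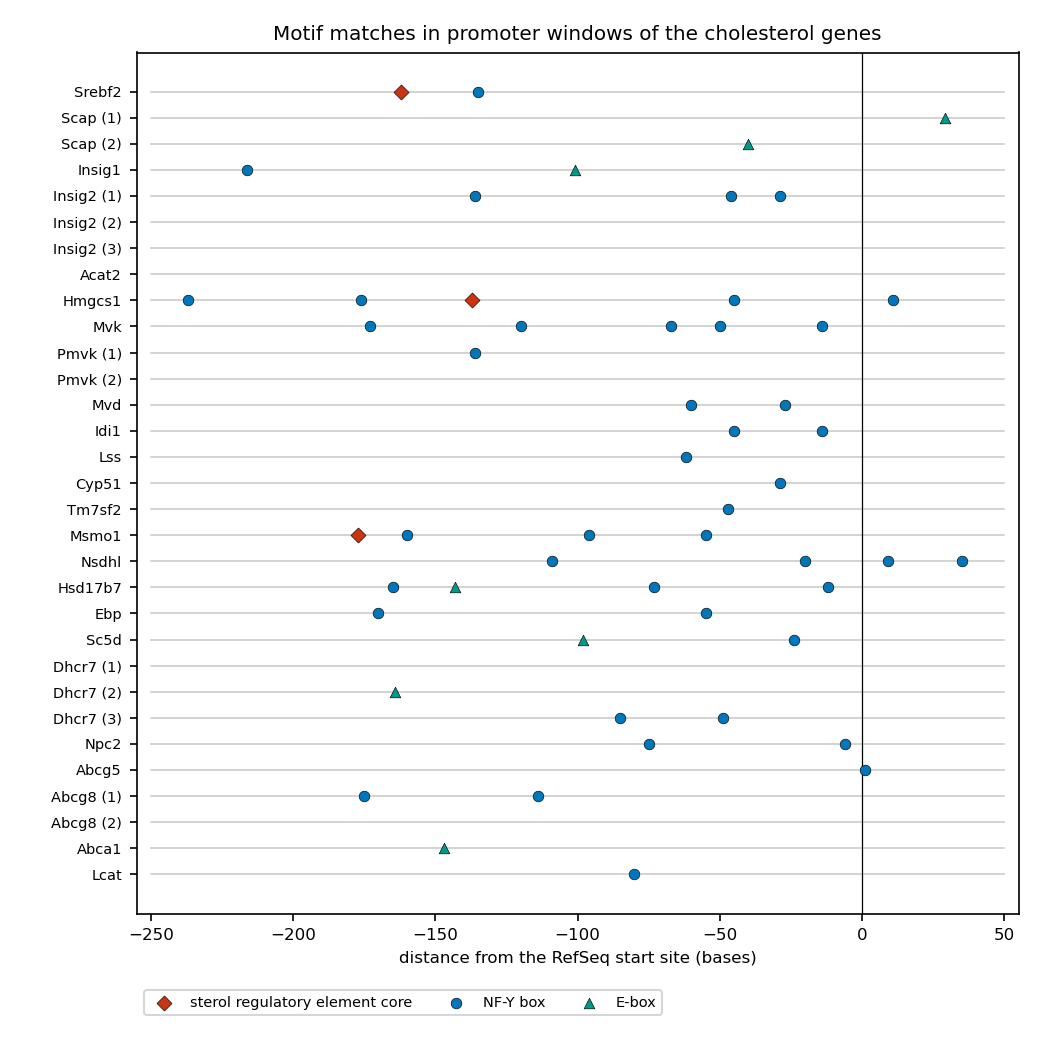
Matches to the sterol regulatory element core, the NF-Y box and the E-box (symbols) in each RefSeq promoter window (rows, numbered where a gene has several) by distance from the start site in bases. NF-Y matches appear in 21 of 24 genes and the sterol element core in Srebf2, Hmgcs1 and Msmo1.

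Every one of the 31 genes had a used locus in both wild type libraries and in knockout replicate 1, and 29 had one in knockout replicate 2. Of them, 27 had at least 50% of a coding transcript assembled in all 4 libraries and passed the filter on low values, and these were tested. Assembly was in 1 piece in every library for 17 genes, which include Insig1, Hmgcs1, Sc5d, Cyp51, Ebp, Abcg5 and Abcg8. Wild type means of the tested genes ran from 2.35 scaled FPKM for Mvk to 174 for Insig1. The highest after Insig1 were Sc5d (170.2) and Lcat (145), and Insig1 and Sc5d differed by less than the spread of their wild type libraries. Lowest after Mvk were Mvd (2.48) and Srebf2 (3.48).

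**Figure D2:**
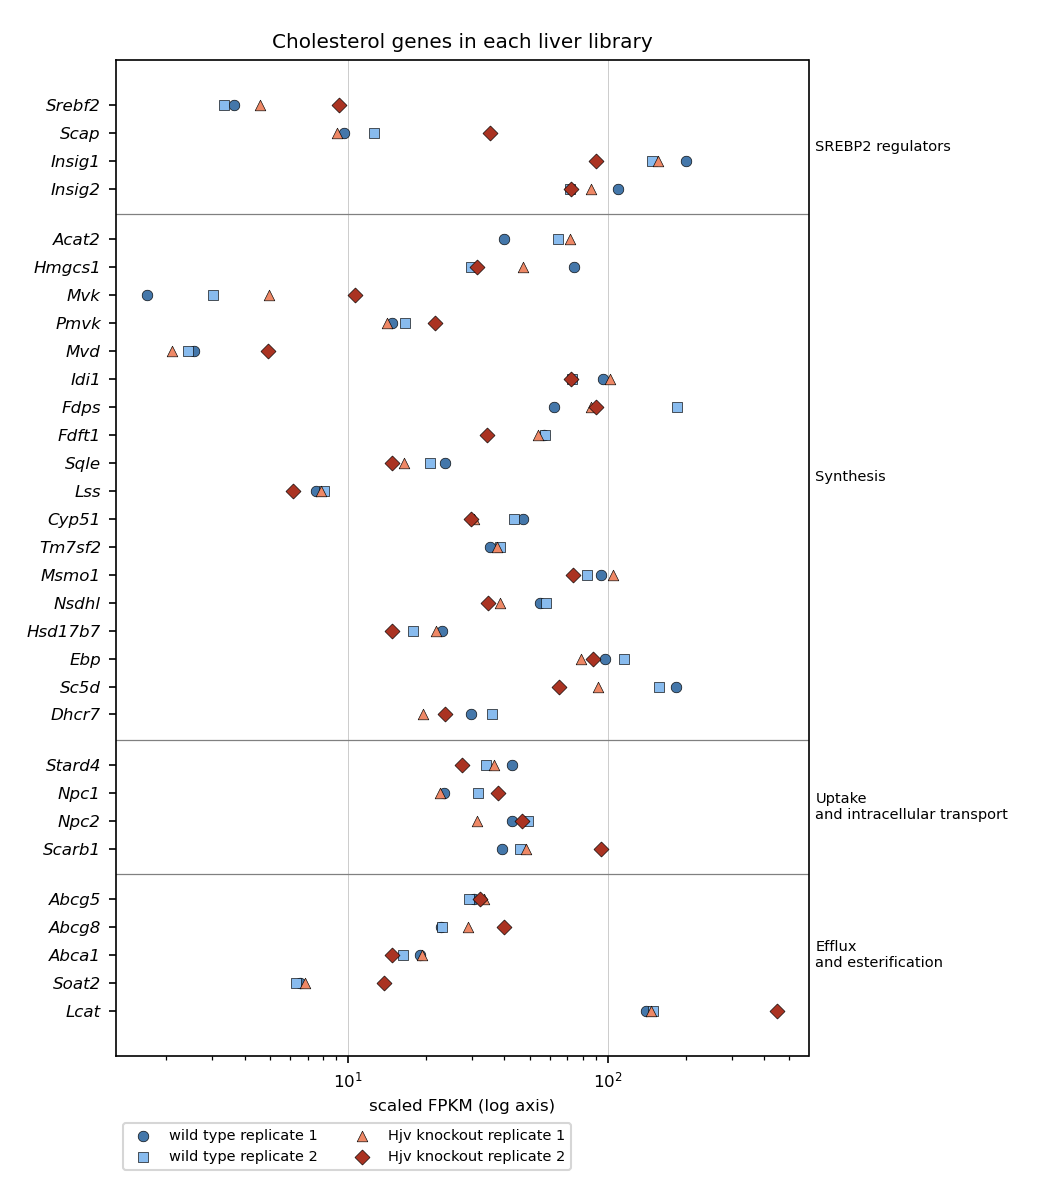
Scaled FPKM (log axis) of all 31 genes in each of the 4 libraries (symbols), grouped by role. Both knockout symbols lie left of both wild type symbols for Sc5d, Nsdhl, Cyp51, Dhcr7, Sqle and Ebp, and knockout replicate 2 stands alone to the right for Lcat, Scap and Scarb1.

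Knockout was compared with wild type to ask which cholesterol genes differed when hemojuvelin was missing. The genes split: 6 of the 27 tested were lower in both knockout libraries than in both wild type libraries, all of them enzymes between squalene and cholesterol. Another 6 were higher in both, namely Srebf2, Mvk, Scarb1, Abcg5, Abcg8 and Soat2. The shares of 22.2% lower and 22.2% higher were close to those over all 7666 genes tested, 23.8% lower and 22.3% higher, so separation as such does not set the list apart. With values as deposited, without scaling, the split was 4 lower (Sc5d, Nsdhl, Cyp51, Dhcr7) and 9 higher, beside 9.32% lower and 35.7% higher of all genes, whose median moved from 0.02 to 0.19. The median log2 difference (knockout minus wild type) was -0.06 over the 27 genes and 0.02 over all genes tested.

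By limma, with p-values adjusted over all 7666 genes, 0 of the 27 passed a threshold of 0.05, as did 0% of all genes. At an unadjusted p under 0.05, 4 were lower (Sc5d, Nsdhl, Cyp51, Dhcr7) and 1 was higher (Mvk), against 5.35% lower (410 genes) and 5.92% higher (454 genes) of all genes. An exact permutation test of 2 libraries against 2 cannot give a two-sided p under 0.33. The words lower and higher below therefore describe these libraries. Groups that did not overlap and differed at least 1.5-fold made up 4 members lower (Sc5d, Nsdhl, Dhcr7, Cyp51), against 6.73% of all genes, and 4 higher (Mvk, Srebf2, Scarb1, Soat2), against 11.7%. Nearest that limit inside was Cyp51, 1.5-fold lower. The nearest outside was Abcg8, whose knockout mean was just under 1.5 times that of wild type, and then Sqle, 1.42-fold lower.

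**Figure D3:**
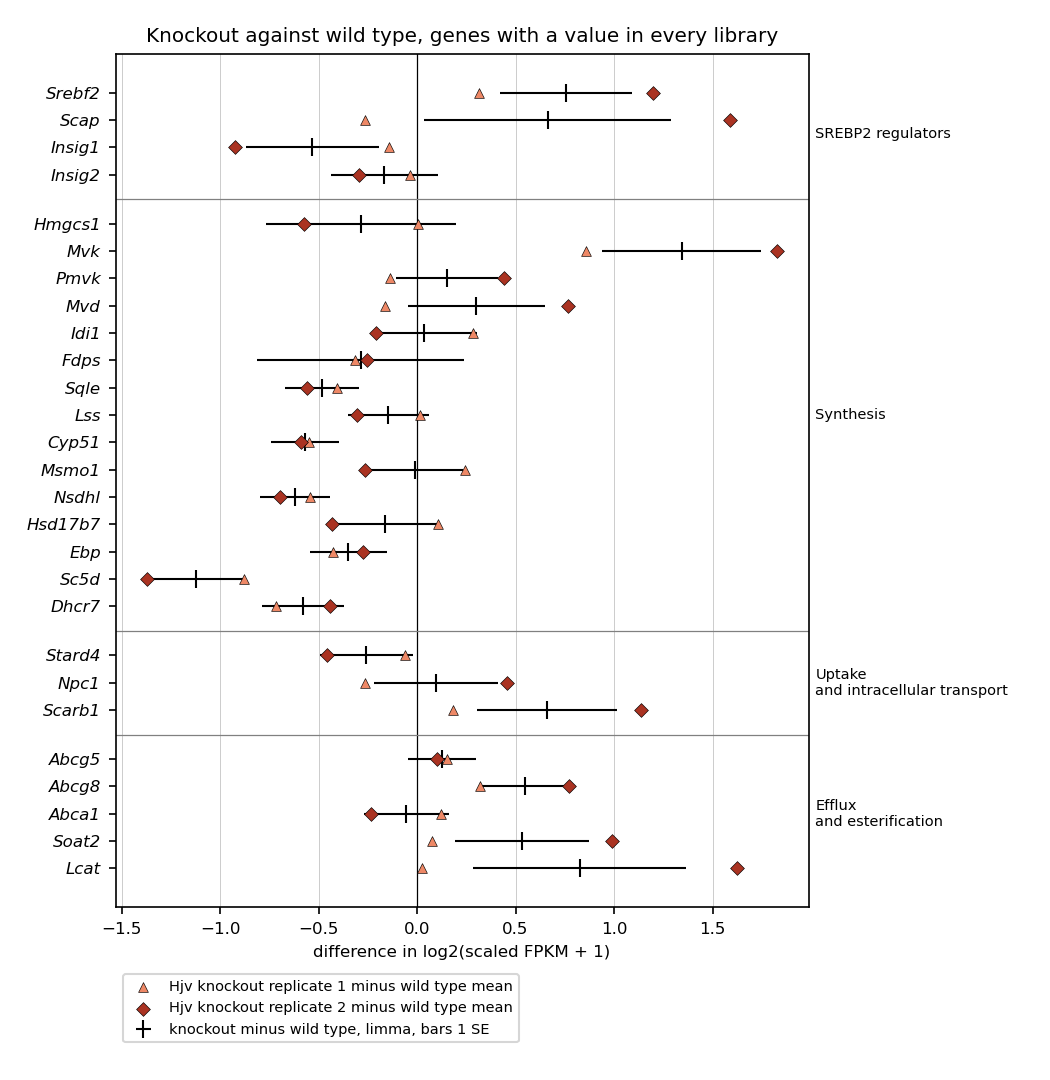
Difference from wild type in log2(scaled FPKM + 1) for the 27 genes tested. Black marks give the limma estimate with bars of 1 SE, and symbols give each knockout library minus the wild type mean. Both symbols lie below 0 for Sqle, Cyp51, Nsdhl, Ebp, Sc5d and Dhcr7. They also do for Fdps, Insig1, Insig2 and Stard4, which overlapped between the genotypes. Both lie above 0 for Mvk, Srebf2, Abcg8, Abcg5, Scarb1 and Soat2, and for Lcat, which overlapped.

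The SREBP2 regulators did not move together. Srebf2 (chromosome 15, 82147181 to 82205379), which encodes the factor itself, measured 3.64 and 3.32 scaled FPKM in wild type and 4.57 and 9.25 in knockout. Both knockout libraries lay above, knockout replicate 2 by far the more. Srebf2 was assembled as 5 loci in each wild type library and 6 in knockout replicate 1, but as 2 in knockout replicate 2. The log2 difference was 0.76 with an SE of 0.34 and a limma adjusted p of 0.480 (unadjusted p = 0.0750), and it was 0.31 without knockout replicate 2. Scap (chromosome 9, 110333288 to 110384950), the escort protein, had wild type values of 9.66 and 12.6 and knockout values of 9.04 and 35.2. By these averages the knockout libraries lay on opposite sides of wild type, and the log2 difference of 0.66 became -0.27 without knockout replicate 2. Scap was assembled as 3 loci in each wild type library and 4 in knockout replicate 1, but as 1 in knockout replicate 2. That 1 locus began at 110373150. In the other libraries a locus before that position, at 7.28 to 13.0 FPKM as deposited, entered the average. The averages therefore cover unlike stretches of the gene. With the highest locus per gene Scap was higher in both knockout libraries, with a log2 difference of 0.64. Without knockout replicate 1 the log2 difference of its averaged values was 1.61, from 1 knockout library.

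Insig1 (chromosome 5, 28071363 to 28078662), the sterol-dependent retention protein and itself a classic SREBP target, gave 200.2 and 148 in wild type, against 156 and 90.1 in knockout. Only knockout replicate 2 lay below both wild type libraries. The log2 difference of Insig1 was -0.53 with an SE of 0.34 and a limma adjusted p of 0.571, and it was -0.15 without knockout replicate 2 and -0.89 without knockout replicate 1. Its relative Insig2 (chromosome 1, 121304353 to 121332589) stood at 109 and 71.7 in wild type and at 86.2 and 71.9 in knockout, inside the wild type range.

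In the early part of synthesis, from acetyl-CoA to squalene, 0 of 6 tested enzymes were lower in both knockout libraries and 1 was higher. Of all genes tested, 23.8% were lower and 22.3% higher. This division of the pathway at squalene was made after the values were seen. Mvk (chromosome 5, 114444269 to 114460591), mevalonate kinase, had wild type values of 1.68 and 3.01 and knockout values of 4.95 and 10.6. The groups did not overlap, although the libraries of each genotype were themselves spread, those of wild type 1.79-fold apart. The log2 difference of Mvk was 1.34 with an SE of 0.40 and a limma adjusted p of 0.408 (unadjusted p = 0.0214), and it was 0.86 without knockout replicate 2. In knockout replicate 1 its main locus had deposited bounds of 2.65 and 9.58 FPKM, the widest relative to their midpoint among the 31 genes in that library.

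Hmgcs1 (chromosome 13, 119690379 to 119708260), which condenses acetyl-CoA and acetoacetyl-CoA, gave 74.1 and 29.8 in wild type, against 47.3 and 31.3 in knockout. The wild type libraries enclosed both knockout libraries, and the log2 difference of -0.28 became -0.94 when wild type replicate 2 was left out and 0.35 when wild type replicate 1 was. Fdps (chromosome 3, 89093588 to 89101959), farnesyl diphosphate synthase, stood at 62.3 and 185 in wild type and at 86.2 and 89.8 in knockout. Again the wild type libraries lay on both sides, and no direction can be given: leaving out wild type replicate 1 gave -1.07, and leaving out wild type replicate 2 gave 0.48. Deposited bounds of Fdps were 166 and 176 FPKM in wild type replicate 2 and 52.9 and 55.6 in wild type replicate 1.

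Idi1, the isomerase of isopentenyl diphosphate, had wild type values of 96.2 and 72.8 and knockout values of 102 and 72.3. Pmvk, the kinase after Mvk, gave 14.7 and 16.6 in wild type, against 14.1 and 21.6 in knockout. Mvd, the decarboxylase of that branch, stood at 2.54 and 2.42 in wild type and at 2.11 and 4.93 in knockout. For Pmvk and Mvd 1 knockout library lay below wild type and the other above, and both differences changed sign when the trend with GC content was removed, to -0.20 for Pmvk and -0.24 for Mvd.

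A pair of early enzymes could not be tested. Acat2, the cytosolic thiolase that starts the pathway, stood at 39.9 and 64.5 in wild type and at 71.3 in knockout replicate 1. Knockout replicate 2 held none of its loci. Fdft1, squalene synthase, had wild type values of 56.7 and 57.3 and knockout values of 53.7 and 34.3, with 47.2% of a transcript assembled in wild type replicate 1. Both knockout values of Fdft1 lay below both wild type values. With the assembly limit lowered to 25% its log2 difference was -0.42 (limma adjusted p = 0.599).

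In the late part of synthesis, from squalene to cholesterol, 6 of 9 tested enzymes were lower in both knockout libraries and 0 were higher. Of all genes tested 23.8% were lower and 22.3% higher, and the division at squalene was made after the values were seen. All 9 log2 differences were negative, with a median of -0.48, but that of Msmo1 was only -0.01. Over 16 alternatives Lss turned positive in 3, Hsd17b7 in 3 and Msmo1 in 7, each of them with values as deposited among others. The 7 for Msmo1 count removal of the trend with GC content with and without a replicate block, which gave the same value. The median transcript GC content of the 9 late enzymes was 46.2%, against 55.7% for the 6 early enzymes. The sum of the 4 hepatocyte markers with a value in every library was also lower in both knockout libraries. The part of either in this pattern was not tested. The largest difference was that of Sc5d (chromosome 9, 42251595 to 42264256), the sterol desaturase, a non-heme iron enzyme. Sc5d measured 182 and 158 scaled FPKM in wild type and 92.1 and 65.0 in knockout, or 170.2 ± 17.3 against 78.5 ± 19.1 (SD, n = 2 each). The lowest wild type library was well above the highest knockout library, and the transcript was assembled in full as 1 locus in every library. The log2 difference was -1.12 with an SE of 0.25, a limma unadjusted p of 0.00622 and an adjusted p of 0.383. It ran from -1.34 to -0.88 with each library left out.

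Nsdhl (chromosome X, 72918557 to 72958514), the dehydrogenase that acts in the removal of methyl groups from the sterol ring, gave 55.1 and 58.0 in wild type, against 38.5 and 34.5 in knockout. Each pair was tight and the pairs lay apart. The log2 difference of Nsdhl was -0.62 with an SE of 0.18 and a limma adjusted p of 0.408 (unadjusted p = 0.0185). Cyp51 (chromosome 5, 4081145 to 4104746), the heme enzyme that demethylates lanosterol, stood at 47.0 and 43.6 in wild type and at 30.6 and 29.8 in knockout. Its knockout libraries were nearly alike, and the log2 difference of -0.57 had an SE of 0.17 and a limma adjusted p of 0.412 (unadjusted p = 0.0226).

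Dhcr7 (chromosome 7, 143823145 to 143848410), the reductase of the final step, had wild type values of 29.7 and 35.9 and knockout values of 19.5 and 23.7. Both knockout libraries were below, by the averaged values knockout replicate 1 the more. In knockout replicate 1 the gene was assembled as 2 loci, at 16.9 and 33.0 FPKM as deposited, so that order rests on their average. The log2 difference of Dhcr7 was -0.58 with an SE of 0.21 and a limma adjusted p of 0.433 (unadjusted p = 0.0397). With the highest locus per gene it was -0.37, and Dhcr7 was still lower in both knockout libraries. Sqle (chromosome 15, 59315077 to 59331192), squalene epoxidase, gave 23.6 and 20.8 in wild type, against 16.5 and 14.7 in knockout, a log2 difference of -0.48. Ebp (chromosome X, 8185329 to 8193512), the sterol isomerase, stood at 97.3 and 115 in wild type and at 78.6 and 87.5 in knockout, a log2 difference of -0.35.

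The other tested enzymes of this stretch overlapped between the genotypes. Lss, which folds squalene epoxide into lanosterol, had wild type values of 7.52 and 8.10 and knockout values of 7.90 and 6.12. Msmo1, the sterol methyl oxidase and another non-heme iron enzyme, gave 93.9 and 82.9 in wild type, against 105 and 73.3 in knockout. Hsd17b7, the keto reductase of the demethylation steps, stood at 23.0 and 17.8 in wild type and at 21.9 and 14.7 in knockout. For each of the 3 enzymes knockout replicate 1 lay within or above wild type and knockout replicate 2 below it. Tm7sf2, a sterol reductase, was not tested: it stood at 35.3 and 38.4 in wild type and at 37.6 in knockout replicate 1. In knockout replicate 2 its exons were joined to those of a neighboring gene in 1 locus at 24.0 FPKM as deposited.

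Genes of fatty acid synthesis and its regulators, many of them driven by the related factor SREBP1, are given for scale. Of 14 tested of 15 listed, 11 were lower in both knockout libraries and 1 (Mlxipl) higher, beside 23.8% and 22.3% of all genes. The median log2 difference of the 14 was -0.86. No test was made between the lists. The fatty acid list's knockout medians were alike in both libraries, at -0.90 and -0.89 against wild type, whereas those of the 27 cholesterol genes were -0.04 and -0.26.

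Of the genes of uptake and intracellular transport, Scarb1 (chromosome 5, 125277087 to 125341094), the receptor that takes cholesteryl ester from high density lipoprotein, was higher in both knockout libraries. It had wild type values of 39.2 and 46.1 and knockout values of 48.4 and 94.5. Knockout replicate 1 was barely above wild type replicate 2, and the log2 difference of 0.66 (SE 0.36, limma unadjusted p = 0.125, adjusted p = 0.532) was 0.18 without knockout replicate 2. Stard4, a cytosolic sterol carrier, gave 42.8 and 34.0 in wild type, against 36.6 and 27.5 in knockout. Npc1, which moves cholesterol out of lysosomes, stood at 23.5 and 31.8 in wild type and at 22.6 and 37.9 in knockout. Its lysosomal partner Npc2 measured 42.9 and 49.1 against 31.3 and 46.7, and was not tested, with 23.6% of a transcript assembled in wild type replicate 1. Stard4, Npc1 and Npc2 overlapped between the genotypes.

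Among efflux and esterification genes, Abcg8 (chromosome 17, 84676302 to 84700333) had wild type values of 22.8 and 23.0 and knockout values of 28.9 and 39.8. Abcg8 and Abcg5 pair up as the transporter that secretes sterols into bile. The wild type libraries of Abcg8 were nearly equal and both knockout libraries stood above, with a log2 difference of 0.55, an SE of 0.22 and a limma adjusted p of 0.454 (unadjusted p = 0.0583). The difference was 0.32 without knockout replicate 2 and 0.80 without knockout replicate 1. Abcg5 (chromosome 17, 84658234 to 84683011), which lies head to head with Abcg8, gave 30.5 and 29.2 in wild type, against 33.3 and 32.1 in knockout. The genotypes of Abcg5 separated by a small step, a log2 difference of 0.13. In every library the locus of Abcg5 covered 82 exonic bases of Abcg8, and without strand such reads cannot be assigned.

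Soat2 (chromosome 15, 102150526 to 102163469), which esterifies cholesterol for lipoproteins, stood at 6.54 and 6.32 in wild type and at 6.84 and 13.8 in knockout. Knockout replicate 1 exceeded wild type by little. The log2 difference of 0.53 (SE 0.34, limma unadjusted p = 0.179, adjusted p = 0.573) was 0.07 without knockout replicate 2. Soat2 was assembled as 2 and 3 loci in wild type and 3 in knockout replicate 1, but as 1 in knockout replicate 2. Lcat (chromosome 8, 105939551 to 105943382), the secreted enzyme that esterifies cholesterol on high density lipoprotein, had wild type values of 141 and 149 and knockout values of 147 and 448. It was at the wild type level in knockout replicate 1 and well above it in knockout replicate 2. The log2 difference of Lcat was 1.65 without knockout replicate 1 and 0.02 without knockout replicate 2. Abca1, which loads cholesterol onto apolipoprotein, gave 19.0 and 16.2 in wild type, against 19.2 and 14.8 in knockout.

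The knockout libraries differed from each other along GC content, and the genes described as higher are on the whole the richer in GC. The wild type libraries also differed along GC content. Over all genes tested, replicate 2 minus replicate 1 had a Spearman correlation with GC content of 0.48 in knockout and 0.27 in wild type. The 7666 genes were divided by transcript GC content into 5 bins of like size. The median log2 difference of knockout replicate 2 from wild type was 0.62 in the bin richest in GC, over 54.8%, and -0.20 in the poorest, under 43.8%. In knockout replicate 1 the same medians were 0.09 and 0.01. The 6 genes higher in both knockout libraries had a median transcript GC content of 55.7%, and the 6 lower had 47.8%. In the richest bin 4 of 8 members were higher in both knockout libraries, beside 41.4% of all genes there. In the bin under 43.8% GC 1 of 3 members was lower in both (Sc5d), beside 31.2% of all genes, and in the bin from 43.8% to 47.5% 2 of 7 (Cyp51 and Nsdhl), beside 35.3%. In the bin from 47.5% to 51.0% GC 2 of 5 members were lower in both (Sqle and Ebp), beside 30.2% of all genes, and in the bin from 51.0% to 54.8% 1 of 4 (Dhcr7), beside 17.2%. The part of GC content in single genes was not tested.

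After a smooth trend with GC content was removed from each library, 8 members were lower in both knockout libraries and 5 higher, beside 23.8% and 22.4% of all genes. Sqle, Cyp51, Nsdhl, Ebp, Sc5d and Dhcr7 were among the lower, now with Mvd and Pmvk, and Soat2 was no longer among the higher. The log2 differences were -1.03 for Sc5d, -0.64 for Dhcr7, -0.52 for Nsdhl, -0.47 for Cyp51, -0.43 for Sqle and -0.34 for Ebp. For Srebf2 the difference was 0.32 after the correction, for Mvk 0.77, for Scap 0.13 and for Lcat 0.59. None of the 27 passed limma after this correction, with a smallest adjusted p of 0.266 (Sc5d).

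**Figure D4:**
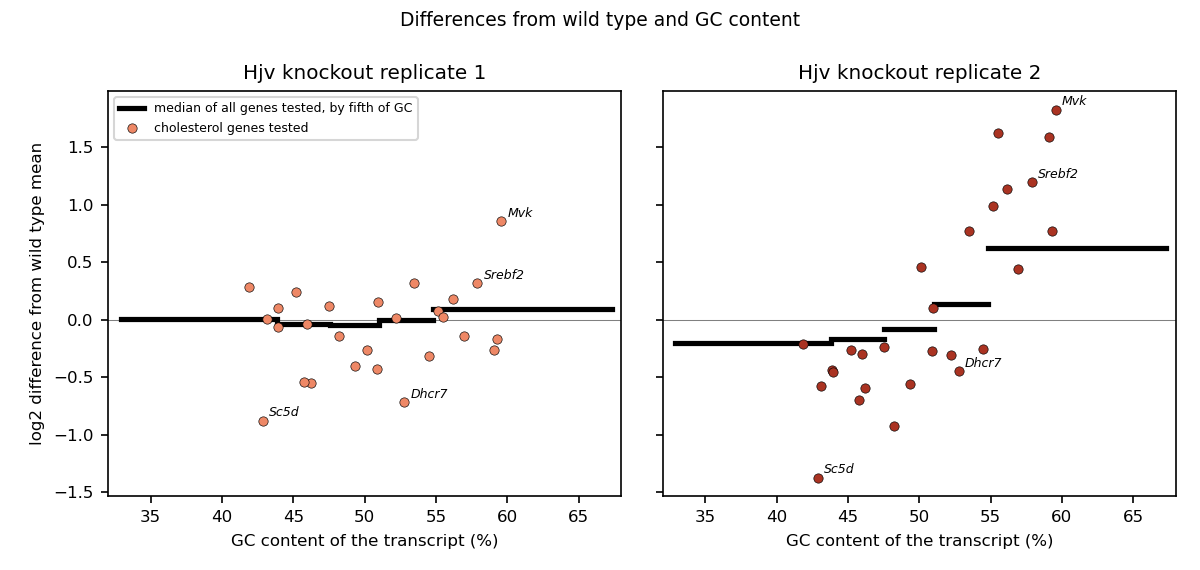
Log2 difference of knockout replicate 1 (left) and knockout replicate 2 (right) from the wild type mean against the GC content of the transcript, for the 27 genes tested (points), with the median of all genes tested in each of 5 bins of GC content (black lines). In knockout replicate 2 the lines climb from -0.20 to 0.62; Sc5d and Dhcr7 lie below the line in both panels and Mvk above it.

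A further 43 genes of the pathway were listed, covering isoprenoid branches, SREBP processing, sterol-sensing receptors, sterol transport and bile acids. Of 32 tested, 7 were lower in both knockout libraries and 7 higher, beside 23.8% and 22.3% of all genes. The median log2 difference of the 32 was 0.04, and 0 of them passed the adjusted limma threshold. Rxra, Nr1h2 and Cyp7a1 did not overlap between the genotypes and were at least 2-fold higher in knockout. Rxra, the partner of the sterol-sensing LXR receptors, measured 20.3 and 20.2 against 38.1 and 69.1, and Nr1h2, an LXR receptor, 3.79 and 3.99 against 4.64 and 14.7.

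Cyp7a1, the rate-limiting enzyme that turns cholesterol into bile acid, gave 6.01 and 12.3 in wild type, against 16.3 and 26.5 in knockout. Its log2 difference was 1.17 with an SE of 0.40 and a limma adjusted p of 0.427. The transcript GC content was 57.0% for Rxra and 60.6% for Nr1h2, and 39.7% for Cyp7a1.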

How the data were processed

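Liver RNA of 2 wild type and 2 Hjv knockout libraries was compared. The members and gene lists were chosen with earlier results of these data known. Per the labels, TruSeq libraries were sequenced on a HiSeq 2000. The submitters' processing notes name FastQC, TopHat, Cufflinks and mm9, without versions. Values deposited by the authors are FPKM with confidence bounds in FPKM, for loci assembled in each library separately and without gene names. The coordinates fit GRCm38: 13.6% to 33.2% of loci over 2000 bases had an end within 20 bases of a GENCODE M21 gene end, against 0.252% to 0.377% after a shift of 50 kb.

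A locus was used if at least 50% of it lay inside the gene it covered best by exonic bases, if no second gene held more than 25% as many, if a locus on 1 exon was at least 50% exonic, and if its FPKM was at most 3 times the midpoint of its bounds. Loci of a gene were averaged in FPKM with exonic bases as weights, and the gene was kept where at least 50% of a coding transcript was spanned. Values were divided by median-of-ratios factors (0.938 and 0.916 in wild type, 1.19 and 0.953 in knockout). Of 7680 genes with a value in all 4 libraries, 7666 had at least 1 scaled FPKM in 2. Log2(scaled FPKM + 1) was fitted by limma 3.58.1 (R 4.3.3) with a mean-variance trend, two-sided, with Benjamini-Hochberg adjustment. The pseudocount of 1 understates changes of low genes. The code was tested on simulated data. Depth, 86900000 and 51200000 fragments in wild type and 54900000 and 132000000 in knockout, rests on the step between bounds of short loci. The half-width of the bounds was 2.42% to 4.22% of their midpoint in the median member of each library, and the deposited FPKM lay inside its bounds for 14 to 21 members per library. All 31 members are given, and further genes of the pathway are named where the genotypes did not overlap and differed at least 2-fold, except that some are not reported here. Alternatives to the scaling, filter, pseudocount, test, locus and assembly rules were run.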

Additional observations from a re-analysis of the deposited data

How the results depend on the processing

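In all, 16 alternatives were run. Limma without trend, the replicate block and no filter could not change the log2 differences of the members. The replicate block with GC correction gave the same log2 differences as GC correction alone. Over the alternatives in which each gene had a value, 15 of the 27 genes kept their direction, among them Sc5d, Nsdhl, Cyp51, Dhcr7, Sqle, Ebp, Mvk, Srebf2, Scarb1, Abcg8, Abcg5 and Soat2, and 12 changed sign at least once. Cyp51, Nsdhl and Mvk had a value in 15 alternatives and Srebf2 in 14. With all 4 libraries the count of lower genes ran from 4 to 8 and that of higher genes from 4 to 9, with 22 to 28 tested. Of all genes, 9.32% to 31.01% were lower and 18.06% to 35.7% higher. The settings were a pseudocount of 0.1, no filter, a filter at 5 FPKM, and deposited or quantile-normalized values. They also included limma without trend, the block, GC correction, the highest locus, and 25% or 80% of a transcript assembled. With the filter at 5 FPKM, 6 of 24 cholesterol genes were lower and 4 higher, beside 31.01% and 18.06% of all genes. With values as deposited, the median of all genes moved to 0.19, that of the cholesterol genes to 0.14, 1 gene in the whole table passed the adjusted threshold, and the cholesterol genes split into 4 lower and 9 higher, beside 9.32% and 35.7% of all genes. In that setting Insig2 was at 0.035, Abca1 at 0.14, Hsd17b7 at 0.031, Msmo1 at 0.19 and Lss at 0.037. Msmo1 was at 0.078 with quantile normalization and 0.046 where 80% of a transcript had to be assembled. With GC correction, alone or with the replicate block, Mvd was at -0.24, Pmvk at -0.20, Abca1 at 0.034 and Msmo1 at 0.094. With the highest locus per gene Npc1 was at -0.20 and Lss at 0.17. In that setting Scap joined the genes higher in both knockout libraries, and Scarb1 and Soat2 were no longer among them. The cause of these changes was not tested.

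With each library left out in turn, the remaining library of that genotype was assumed to vary as the other genotype did, and fewer samples make separation easier. The cholesterol genes lower without overlap then ran from 9 to 12 and those higher from 7 to 11, beside 33.5% to 40.1% lower and 32.4% to 40.1% higher of all genes, with a median log2 difference from -0.23 to 0.053. Genes past the adjusted threshold in the whole table ran from 1 to 380. The 380, of 8263 genes tested, came without knockout replicate 1, and without knockout replicate 2 there were 40 of 7903. Each of these fits holds 1 knockout library, so no cholesterol gene is called from them. Without knockout replicate 1 the log2 difference was -1.34 for Sc5d, 1.61 for Scap and 1.65 for Lcat. Log2 differences ran from -0.48 to 0.13 for Insig2, -0.27 to 1.61 for Scap, -0.94 to 0.35 for Hmgcs1, -0.15 to 0.47 for Pmvk and -0.17 to 0.78 for Mvd. They ran from -0.18 to 0.27 for Idi1, -1.07 to 0.48 for Fdps, -0.28 to 0.0098 for Lss, -0.24 to 0.24 for Msmo1 and -0.40 to 0.10 for Hsd17b7. For Npc1 they ran from -0.27 to 0.48 and for Abca1 from -0.21 to 0.12.

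Replicate numbers are shared between the genotypes, but same-numbered libraries deviated together with a correlation of 0.08 over 2 pairs, which does not show that the numbers pair them. The fit with the replicate number as a block gave 0 genes past the adjusted threshold. Each replicate number holds both genotypes, so a block cannot change the log2 differences or the counts. The 6 cholesterol genes lower, the 6 higher and the median of -0.06 are therefore those of the main fit. The widest relative bounds were those of Mvk in knockout replicate 1, and assembly gaps left Acat2, Fdft1, Tm7sf2 and Npc2 without a test.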

Other observations

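Gramd1c, a carrier of cholesterol from the plasma membrane, was singled out after its values were seen. Wild type gave 12.0 and 8.81 scaled FPKM for it and knockout replicate 1 gave 10.9, while knockout replicate 2, where it was assembled as 3 loci, gave 1575. Its log2 difference of 3.60 had an SE of 2.26 and a limma adjusted p of 0.571, and rests on that library.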
